A study of Homo sapiens with 44 samples.

Results

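Enzalutamide was compared with vehicle in castration-resistant VCaP xenograft tumors, across all genes with enough counts to be tested. VCaP is a long-established line of human prostate cancer cells, with a TMPRSS2-ERG gene fusion. The comparison used 28 of the 44 RNA-seq libraries of the study: 13 tumors from mice given enzalutamide at 20 mg/kg/day by gavage and 15 tumors from mice given vehicle, both for 4 weeks. All host animals were castrated HSD:Athymic Nude–Foxn1nu mice that carried VCaP cells of passage 61, and dosing began once serum PSA had returned to its level before castration. Another enzalutamide library, enzalutamide 4, held 80142 counts in all and was left out. The remaining 15 libraries came from tumors treated with ARN-509, a second antiandrogen, at the same dose. They are used only for levels set beside those of enzalutamide and in an alternative fit of 43 libraries. The host lacks T cells but keeps its own stroma and blood vessels, and all tumors come from 1 cell line, so each arm describes variation between tumors of that line and not between patients.

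Enzalutamide is an antiandrogen: it competes with androgen and blocks the hormone's signal to the nucleus. That signal induces genes of prostate secretion and metabolism and represses others. Castration-resistant tumors typically keep androgen signalling at low hormone levels, and a second-generation antiandrogen is then given to block it.

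The libraries held 4187464 to 25849380 counts in the vehicle arm (median 5713659) and 4723513 to 16903189 in the enzalutamide arm (median 8623565). Levels below are CPM, a gene's counts relative to the scaled total of its library, and fold changes are log2 of enzalutamide over vehicle ± SE from edgeR's quasi-likelihood test with Benjamini-Hochberg adjustment over all tested genes. The tumors kept the marker genes of the line: KLK2 was at or above 3485 CPM in every library of both arms and ERG at or above 420. Vehicle 8 and vehicle 10 were the libraries least like their arm, with Pearson r of 0.884 and 0.917 to the mean of the other vehicle libraries across genes averaging at least 50 CPM. In the enzalutamide arm the lowest r was 0.962. The labels do not name the animal behind each library; each was counted as 1 sample, and p-values measure the spread between these samples.

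Of 13193 genes tested, 1095 passed an adjusted p of 0.05 (8.30%), with 481 higher under enzalutamide (3.65%) and 614 lower (4.65%). Most of these changes were small. Of the 1095, 646 changed by less than 1.5-fold (294 rose and 352 fell), 282 by 1.5- to 2-fold (129 rose and 153 fell) and 167 by at least 2-fold (58 rose and 109 fell). The share of called genes by size was thus 59.0%, 25.8% and 15.3%. The split between higher and lower genes depended on scaling: 648 rose and 484 fell with library totals, and 686 rose and 502 fell with upper-quartile scaling, which moved the median of all genes from -0.01 to 0.02 on the log2 scale in both. Without vehicle 8 the weaker class held 986 genes in place of 646, and 1446 genes were called in all.

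**Figure D1:**
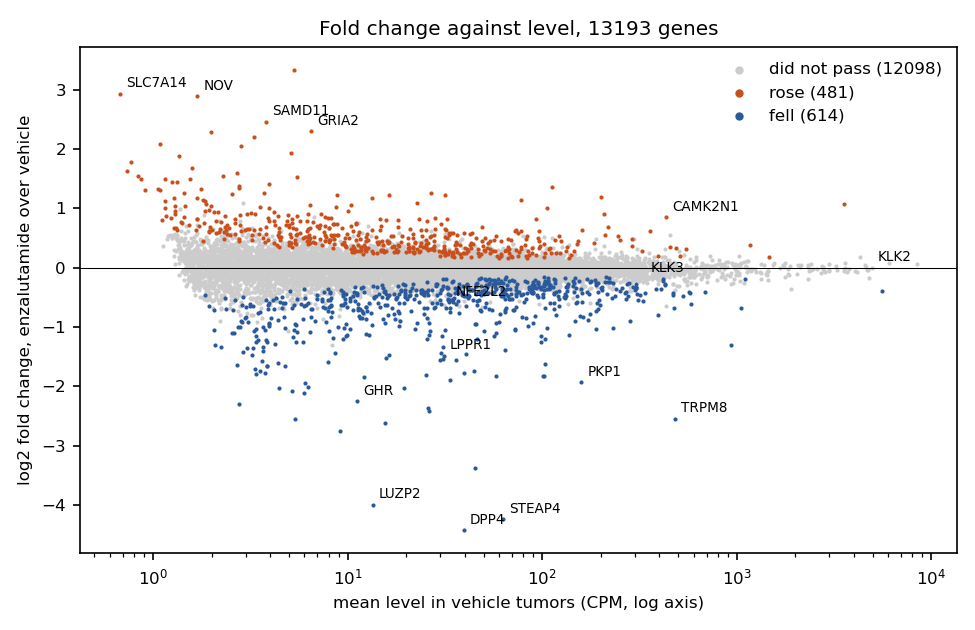
Log2 fold change of enzalutamide over vehicle (y axis) against the mean level in 15 vehicle tumors (x axis, CPM, log axis) for each of 13193 genes, coloured by whether the gene rose (481), fell (614) or did not pass (12098). The largest folds lie among genes below about 100 CPM, while TRPM8 is an abundant gene that changed at least 2-fold and KLK2 lies near 0.

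The position of single tumors was counted as a description; genes were called from the same tumors, and a small fold passes mainly where most tumors lie on one side, so these shares follow in part from the choice of genes. Among genes that changed by less than 1.5-fold, 555 of 646 (85.9%) had at least 12 of the 13 enzalutamide tumors on the same side of the vehicle median, and 322 (49.8%) had all 13. The same held for 2185 of all 13193 genes (16.6%) at 12 tumors and for 985 (7.47%) at 13. Of the 646, 386 were called in each of the 28 fits that left out 1 library, against 242 of the 282 genes of the middle class and 152 of the 167 that changed at least 2-fold. For the genes tested, the median 95% interval reached 0.21 on the log2 scale to either side, and for 11082 genes (84.0%) the whole interval lay within 1.5-fold. The arms did not overlap at all for 9 genes (0.0682%), all of them called: NOV, LOC100130417, CAMK2N1 and OXTR were higher under enzalutamide, and LPPR1, C4orf19, TOX3, RAPGEF3 and NFE2L2 lower.

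LPPR1 had the smallest p of the genes that fell, and its promoter is shown to give the region in which hormone response letters were looked for. It comes from RefSeq (GRCh38.p14), 250 bases before to 50 after the gene's start on the plus strand at chr9:101028477-101028776, and holds no match:
LPPR1: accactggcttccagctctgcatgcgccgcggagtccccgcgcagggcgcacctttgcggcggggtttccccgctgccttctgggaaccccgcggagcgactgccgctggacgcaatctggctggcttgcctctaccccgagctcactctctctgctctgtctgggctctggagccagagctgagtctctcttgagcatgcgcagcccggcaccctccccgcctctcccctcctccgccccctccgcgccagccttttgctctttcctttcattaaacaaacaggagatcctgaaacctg
KCNJ3, which rose, is shown as a gene whose window does hold the half-site (chr2:154698445-154698744, plus strand, half-site in capitals, first base 150 before the start):
KCNJ3: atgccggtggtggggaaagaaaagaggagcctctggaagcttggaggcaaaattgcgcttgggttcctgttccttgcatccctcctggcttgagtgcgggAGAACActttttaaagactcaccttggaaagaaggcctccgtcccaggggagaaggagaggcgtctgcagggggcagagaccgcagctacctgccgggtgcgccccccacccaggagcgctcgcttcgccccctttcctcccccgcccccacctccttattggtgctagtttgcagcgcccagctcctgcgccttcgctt
The half-site searched was AGAACA on both strands. It stood in 8.79% of the windows of tested genes, 9.62% of those of genes that rose and 9.02% of those of genes that fell, and in 10 of 87 and 6 of 35 windows of genes that fell and rose at least 2-fold. Single windows were read for the 3 genes that fell with the smallest p (LPPR1, C4orf19 and LUZP2) and for 3 that rose. Those 3 were SLC7A14, CYBASC3 and SAMD11, which had the smallest p of the genes that rose after NOV. NOV had a smaller p than these 3, but its window was not among the 6. The 6 windows held 0 matches and none of the forkhead letters TGTTTAC. A match is a run of letters and not a bound site, and most hormone response elements are known to lie outside such windows.

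Vehicle tumors were unequal, and some stood near the treated arm. Of the 167 genes that changed at least 2-fold, vehicle 11 lay inside the enzalutamide range for 141, vehicle 14 for 107, vehicle 2 for 82 and vehicle 10 for 65, while the median vehicle tumor did so for 36 and vehicle 1 for 12. STEAP4 was at 4.39 CPM in vehicle 11, 13.5 in vehicle 14 and 14.5 in vehicle 2, against a vehicle median of 63.8. DPP4 was lowest in vehicle 14, 2 and 13, at 3.33, 4.01 and 5.33 CPM against a vehicle median of 34.4. This count describes genes chosen by the same comparison, so no test was made of it. Conversely, each enzalutamide tumor lay inside the vehicle range for 57 (enzalutamide 7) to 115 (enzalutamide 8) of the 167 genes.

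**Figure D2:**
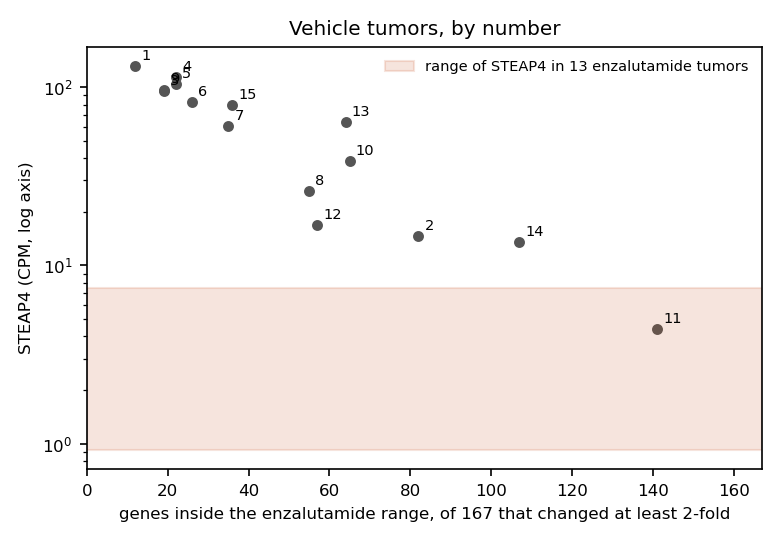
STEAP4 level (y axis, CPM, log axis) of each of the 15 vehicle tumors, labelled by number, against how many of the 167 genes that changed at least 2-fold had a value inside the range of the 13 enzalutamide tumors (x axis). Vehicle 11, with 141 genes in range, is the only vehicle tumor in the shaded band, the STEAP4 range of the enzalutamide tumors (0.92 to 7.45 CPM), and vehicle 2 and 14 (82 and 107 genes) lie next to it.

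Among androgen-induced genes more members fell than rose. Of 37 tested members 14 fell and 3 rose, beside 4.65% and 3.65% of all tested genes, with a median log2 value of -0.20, and 15 to 20 were called when single libraries were left out. Beside STEAP4 and TRPM8, HERC3, a ubiquitin ligase, went from 28.6 to 89.3 CPM (median 56.9) in vehicle tumors to 20.1 to 40.3 (median 25.9) under enzalutamide (-1.10 ± 0.15, adjusted p = 4.4e-06). PMEPA1, which dampens TGF-beta signalling, went from a median of 1054 CPM (741 to 1329) to 687 (463 to 907), a change of -0.69 ± 0.10 (adjusted p = 1.59e-05). Both genes had every enzalutamide tumor below the vehicle median, with overlapping arms. FKBP5, the co-chaperone of steroid receptors, fell less, from 326 (171 to 403) to 208 CPM (141 to 371), by 0.44 on the log2 scale (SE 0.12, adjusted p = 0.0148). The acyl-CoA synthetase gene ACSL3 fell by 0.45.

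FAM105A and ADAM7 were among the members that rose against the list's name. ADAM7 of the metalloprotease family went from a median of 2.74 CPM to 10.5 (1.41 ± 0.27, adjusted p = 0.000771), and FAM105A from 12.7 to 19.3. The kallikrein genes did not pass. KLK3, which encodes PSA, spanned 184 to 1036 CPM (median 294) in vehicle and 132 to 729 CPM (median 251) in enzalutamide tumors, with a log2 difference of -0.17 ± 0.25 (adjusted p = 0.744). KLK2 differed by 0.00 with an SE of 0.09 (medians 4897 and 4972 CPM, adjusted p = 0.996), and TMPRSS2 by 0.23 ± 0.17 (adjusted p = 0.441). Reads of KLK2 and KLK3 can be shared between these related genes.

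**Figure D3:**
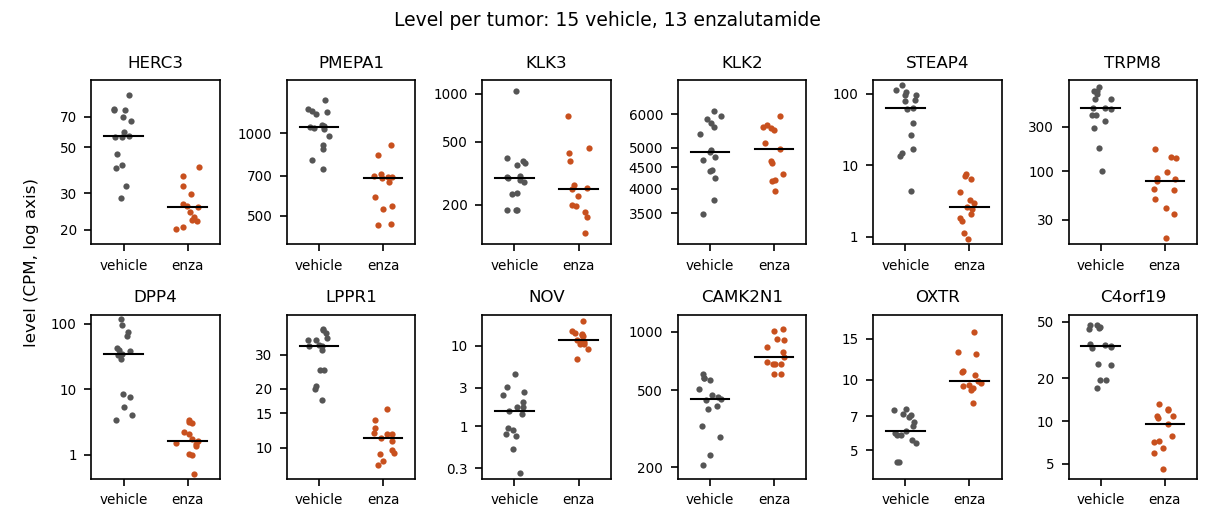
Level of 12 genes (CPM, log axis, each panel with its own scale) in each of 15 vehicle and 13 enzalutamide tumors; points are tumors and bars are medians. KLK3 and KLK2 overlap over most of their range, HERC3, PMEPA1, STEAP4, TRPM8 and DPP4 overlap in part, LPPR1, NOV, CAMK2N1, OXTR and C4orf19 do not overlap, and STEAP4 of vehicle 11 (4.39 CPM) lies among the enzalutamide tumors.

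Genes that androgen represses were mostly higher: of 8 tested members 5 rose and 1 fell, with a median of 0.82. NOV, a secreted matricellular protein, spanned 0.26 to 4.42 CPM (median 1.57) in vehicle tumors and 6.86 to 20.7 (median 12) under enzalutamide (2.88 ± 0.24, adjusted p = 2.3e-09). CAMK2N1, an inhibitor of CaM kinase II, spanned 205 to 603 CPM in vehicle tumors (median 451) and 605 to 1036 under enzalutamide (median 741), a change of 0.85 ± 0.13 (adjusted p = 6.28e-05). IGFBP3, which binds insulin-like growth factors, rose from a median of 1.2 to 3.75 CPM (1.32 ± 0.34, adjusted p = 0.011). HSD17B6, an enzyme that converts androgen metabolites, fell from 35.8 to 22.8 CPM (-0.76 ± 0.11, adjusted p = 2.57e-05). Among 17 tested enzymes of androgen synthesis and conversion, HSD17B6 was the 1 that fell and 3 rose: HSD17B4 (0.31), the retinol dehydrogenase RDH11 (0.44) and SRD5A3 of the 5-alpha-reductase family (0.30). The call of SRD5A3 was lost without enzalutamide 5, enzalutamide 12 or vehicle 1 (adjusted p = 0.0588, 0.0508 and 0.0538).

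Prostate lineage transcription factors moved both ways, with 3 of 18 up and 4 down. HNF4G, a factor of gut-like enhancers, went from a median of 3.80 to 7.27 CPM (0.78 ± 0.19, adjusted p = 0.00597) and GATA2, a pioneer-type factor, from 186 to 290 (0.54 ± 0.15, adjusted p = 0.0205). KLF5 fell from 3.29 to 1.28 CPM (-1.35 ± 0.24) and SOX9 from 104 to 75.3 (-0.69 ± 0.13). FOXA1 (-0.02, adjusted p = 0.94) and HOXB13 (0.18, adjusted p = 0.127) did not pass. Of 24 coregulators of nuclear receptors 1 fell, the coactivator gene NCOA1 (-0.54 ± 0.11, adjusted p = 0.00187), and of 20 receptor chaperones 2 fell, FKBP5 and HSPA4 (-0.28, lost in 18 of the 28 fits). The count of chaperones that fell ran from 1 to 6 over those fits. Among 15 glucocorticoid-induced genes KLF9, a target shared by several steroid receptors, rose from 12.2 to 27.1 CPM (1.17 ± 0.24, adjusted p = 0.00145) and 2 fell, FKBP5 and SLC19A2 (lost in 11 of the 28 fits); without enzalutamide 8, 5 were called. The receptor gene NR3C1 itself had medians of 6.23 and 7.84 CPM (0.32 ± 0.22, adjusted p = 0.411).

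ERG-associated genes gave 2 up and 4 down of 11 while ERG did not pass (medians 604 and 589 CPM, -0.14 ± 0.14, adjusted p = 0.596). HLA-DMB, part of MHC class II loading, fell from 108 to 34.1 CPM (-1.63 ± 0.20) and the potassium channel KCNH8 from 101 to 44.0 (-1.20 ± 0.16), whereas the calcium sensor NCALD rose from 27.1 to 46.7 (0.65 ± 0.10) and the phospholipase PLA1A from 99.0 to 121 (0.36 ± 0.09). Of 16 prostate surface and serum antigens 2 rose, STEAP1 (medians 83.1 and 125 CPM, 0.51 ± 0.14, adjusted p = 0.0194) and TMEFF2 (19.2 and 59.1 CPM, 1.23 ± 0.35, adjusted p = 0.0248; adjusted p = 0.0663 without enzalutamide 5), and 3 fell. FOLH1, which encodes PSMA, had medians of 6.02 and 10.8 CPM but 101 CPM in 1 vehicle tumor, and a log2 value of -0.22 ± 0.42 (adjusted p = 0.821). Without vehicle 12 its value was 0.76 with an adjusted p of 0.00412.

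Past the 10 genes of largest rise (ALB, SLC7A14, NOV, SAMD11, GRIA2, LOC100130417, SCNN1A, ATP2B2, CA4 and EYA2), ranks 11 to 20 were BMX, KCNJ3, TMEM229B, ADCY2, PLA2G2A, H19, SIGLEC10, GNG2, CDHR3 and ADAM7. BMX, a TEC-family tyrosine kinase, spanned 0.24 to 4.42 CPM in vehicle (median 0.95) and 0.61 to 11.8 under enzalutamide (median 4.88), a rise of 1.88 ± 0.35 (adjusted p = 0.000443) with 12 of 13 tumors above the vehicle median. PLA2G2A, a secreted phospholipase, spanned 0.78 to 15.8 CPM (median 4.86) and 7.37 to 29.5 (median 14.5), a rise of 1.52 ± 0.29 (adjusted p = 0.000577). KCNJ3 and GNG2, a G-protein-gated potassium channel subunit and a G protein gamma subunit, rose by 1.68 ± 0.29 and 1.45 ± 0.27, and the adenylate cyclase ADCY2 by 1.55 ± 0.32. The imprinted noncoding RNA H19 was above the vehicle median in 8 of 13 tumors, and its call (1.5 ± 0.45, adjusted p = 0.0323) was lost in 7 of the 28 fits. The size of the rise of ALB rested on enzalutamide 2, at 613 CPM against a median of 7.96 in its arm: without that tumor ALB still passed, at a log2 value of 0.52 (adjusted p = 0.0397).

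Past the 10 genes of largest fall (DPP4, STEAP4, LUZP2, ST6GALNAC1, CACNG4, TESC, KRT14, TRPM8, PIGR and RHOJ), ranks 11 to 20 were GHR, ESRRG, LAMA4, DIRAS2, LOC729178, GUCY1A2, SLC2A3, PKP1, C4orf19 and IKZF1. PKP1, plakophilin of the desmosome, was the most abundant of them and spanned 33.4 to 369 CPM in vehicle tumors (median 156) and 14.3 to 73.9 under enzalutamide (median 36.3), a fall of -1.93 ± 0.30 (adjusted p = 6.45e-05). GHR, the growth hormone receptor, went from 11 (2.86 to 21.9) to 2.14 CPM (0.46 to 5.19), and C4orf19 from 33.7 (17.1 to 47.6) to 9.59 CPM (4.61 to 13.2). ESRRG, an orphan nuclear receptor, changed by -2.11 ± 0.33 on the log2 scale, GUCY1A2, a subunit of soluble guanylate cyclase, by -2.01 ± 0.29, and IKZF1, the Ikaros zinc finger factor, by -1.84 ± 0.31. All 13 enzalutamide tumors lay below the vehicle median for each of these 10. The call of PIGR rested on vehicle 12, at 268 CPM against a median of 6.87: without it the log2 value was -0.85 (adjusted p = 0.197).

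Among changes of 1.5- to 2-fold, the best supported falls were SMPD3, UAP1, CSDA, FAM13A-AS1, PDLIM5, ETV6, IQGAP2, FZD5, SLC43A1 and TM4SF1, each with 13 of 13 enzalutamide tumors below the vehicle median. SMPD3, a neutral sphingomyelinase, spanned 90.1 to 133 CPM (median 124) in vehicle and 51.8 to 95.4 (median 63.5) in enzalutamide tumors (-0.80 ± 0.09, adjusted p = 2.56e-07). UAP1, which makes UDP-GlcNAc for glycosylation, spanned 124 to 239 CPM (median 202) and 96.3 to 130 (median 119), a change of -0.70 ± 0.08 (adjusted p = 6.68e-07). The arms of both genes overlapped only between the lowest vehicle and the highest enzalutamide values. CSDA, a cold-shock domain protein, went from a median of 422 to 216 CPM, PDLIM5 of the actin cytoskeleton from 193 to 117, the ETS-family repressor ETV6 from 71.1 to 42.3, and the amino acid transporter SLC43A1 from 72.9 to 42.9. FAM13A-AS1 is an antisense transcript, and the library kit does not mark strand, so its reads cannot be told apart from those of its partner.

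The best supported rises of that size were OXTR, CROT, EFNB3, TESK2, NCALD, TM7SF2, CAMK2N1, WLS, TMEM138 and RUNDC3A. OXTR, the oxytocin receptor, spanned 4.44 to 7.54 CPM (median 6.03) in vehicle and 8.00 to 16.1 (median 9.86) under enzalutamide (0.79 ± 0.10, adjusted p = 4.14e-06). CROT, a carnitine acyltransferase of the peroxisome, went from 40.6 (27.5 to 47.8) to 60.5 CPM (40.7 to 82.1) and the sterol reductase TM7SF2 from 208 (136 to 307) to 343 (244 to 430). WLS, which carries WNT proteins to the cell surface, rose from 6.53 to 11.3 CPM (0.91 ± 0.15) and EFNB3, an ephrin ligand, from 16.8 to 28.7 (0.69 ± 0.10). Each of these 10 genes was above the vehicle median in 13 of 13 enzalutamide tumors.

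Of the genes that fell by less than 1.5-fold, those with the smallest p were NFE2L2, HOMER2, KHDRBS3, PRKCH, TSPAN13, CTDSPL, C9orf152, EPB41L4B, NFKB1 and C1orf116. NFE2L2, the NRF2 regulator of antioxidant genes, spanned 25.9 to 44.7 CPM (median 33.4) in vehicle tumors and 19.4 to 25.1 (median 22.8) under enzalutamide (-0.58 ± 0.08, adjusted p = 3.63e-06). NFKB1, a subunit of NF-kB, spanned 37.8 to 63.3 CPM (median 49.2) and 27.1 to 42.2 (median 34.3), a fall of -0.47 ± 0.08 (adjusted p = 0.00017). The first pair of ranges did not overlap and the second did so only between 37.8 and 42.2 CPM. The scaffold protein gene HOMER2 went from a median of 250 to 187 CPM, the protein kinase C gene PRKCH from 48.7 to 32.9, and the phosphatase-like CTDSPL from 421 to 357 (-0.29 ± 0.05, adjusted p = 0.000154). C1orf116, an androgen-induced gene, fell from 513 (400 to 692) to 375 CPM (324 to 454).

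Among the rises of less than 1.5-fold with the smallest p were C14orf93, ALDH2, MPP1, COL6A1, EFCAB11, CD24, ITPK1, UGDH and ALDH3A2. Both ALDH genes encode dehydrogenases of aldehydes. ALDH2 spanned 35.0 to 68.5 CPM (median 49.0) in vehicle and 56.9 to 93.6 (median 70.9) under enzalutamide (0.50 ± 0.08, adjusted p = 7.02e-05), and ALDH3A2 went from a median of 148 to 208 CPM (0.45 ± 0.09). CD24, a surface glycoprotein, spanned 495 to 646 CPM (median 548) and 584 to 848 (median 689), a rise of 0.31 ± 0.06 (adjusted p = 0.000316). UGDH, which makes the UDP-glucuronate used in steroid conjugation, rose from 173 (144 to 243) to 248 CPM (205 to 293). The collagen gene COL6A1 rose from 43.5 to 61.1 CPM with all 13 tumors above the vehicle median.

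**Figure D4:**
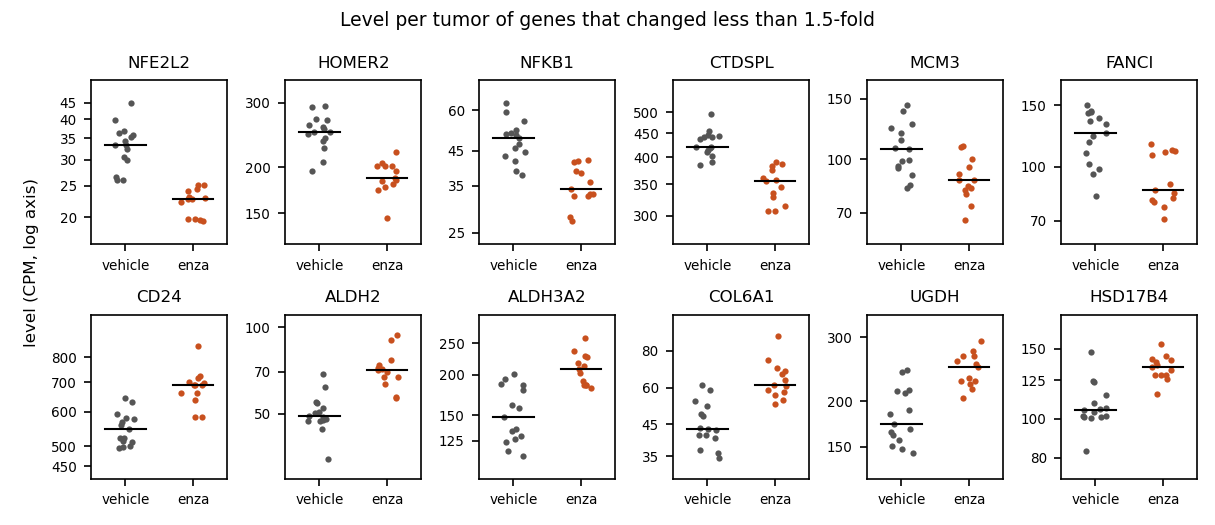
Level of 12 genes that changed by less than 1.5-fold (CPM, log axis, each panel with its own scale) in each of 15 vehicle and 13 enzalutamide tumors; points are tumors and bars are medians. The arms separate for NFE2L2 (25.9 to 44.7 against 19.4 to 25.1 CPM) and overlap in the other panels, where the medians still differ.

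To see which functions the changes shared, 76 lists of genes were counted against the background of 8.30%, first for calls of any size. Members of any list were called in 9.67% of 2657 genes and genes in no list in 7.95%. By group, called shares were 35% for markers of other cell types (7 of 20 genes), 28.3% for androgen lists, 18.0% for signalling, 18.0% for neural genes and 17.5% for structural ones, 8.89% for cell cycle and repair and 8.35% for metabolism. They were 3.46% for protein synthesis and handling and 3.41% for RNA and chromatin. Calls under 1.5-fold alone made up 133 of the 2657 list genes, beside 646 of all 13193 tested genes. By group they were 21 of 152 androgen, 24 of 378 signalling, 6 of 100 neural, 17 of 223 structural and 19 of 225 cell cycle genes. For metabolism they were 22 of 395, for protein 9 of 549, for RNA and chromatin 19 of 674, and for other cell types 1 of 20. Of the 20 called cell cycle genes 19 changed by less than 1.5-fold and 0 by 2-fold, whereas of 68 called signalling genes 24 changed by less than 1.5-fold and 17 by at least 2-fold. These are counts without a test of the lists.

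**Figure D5:**
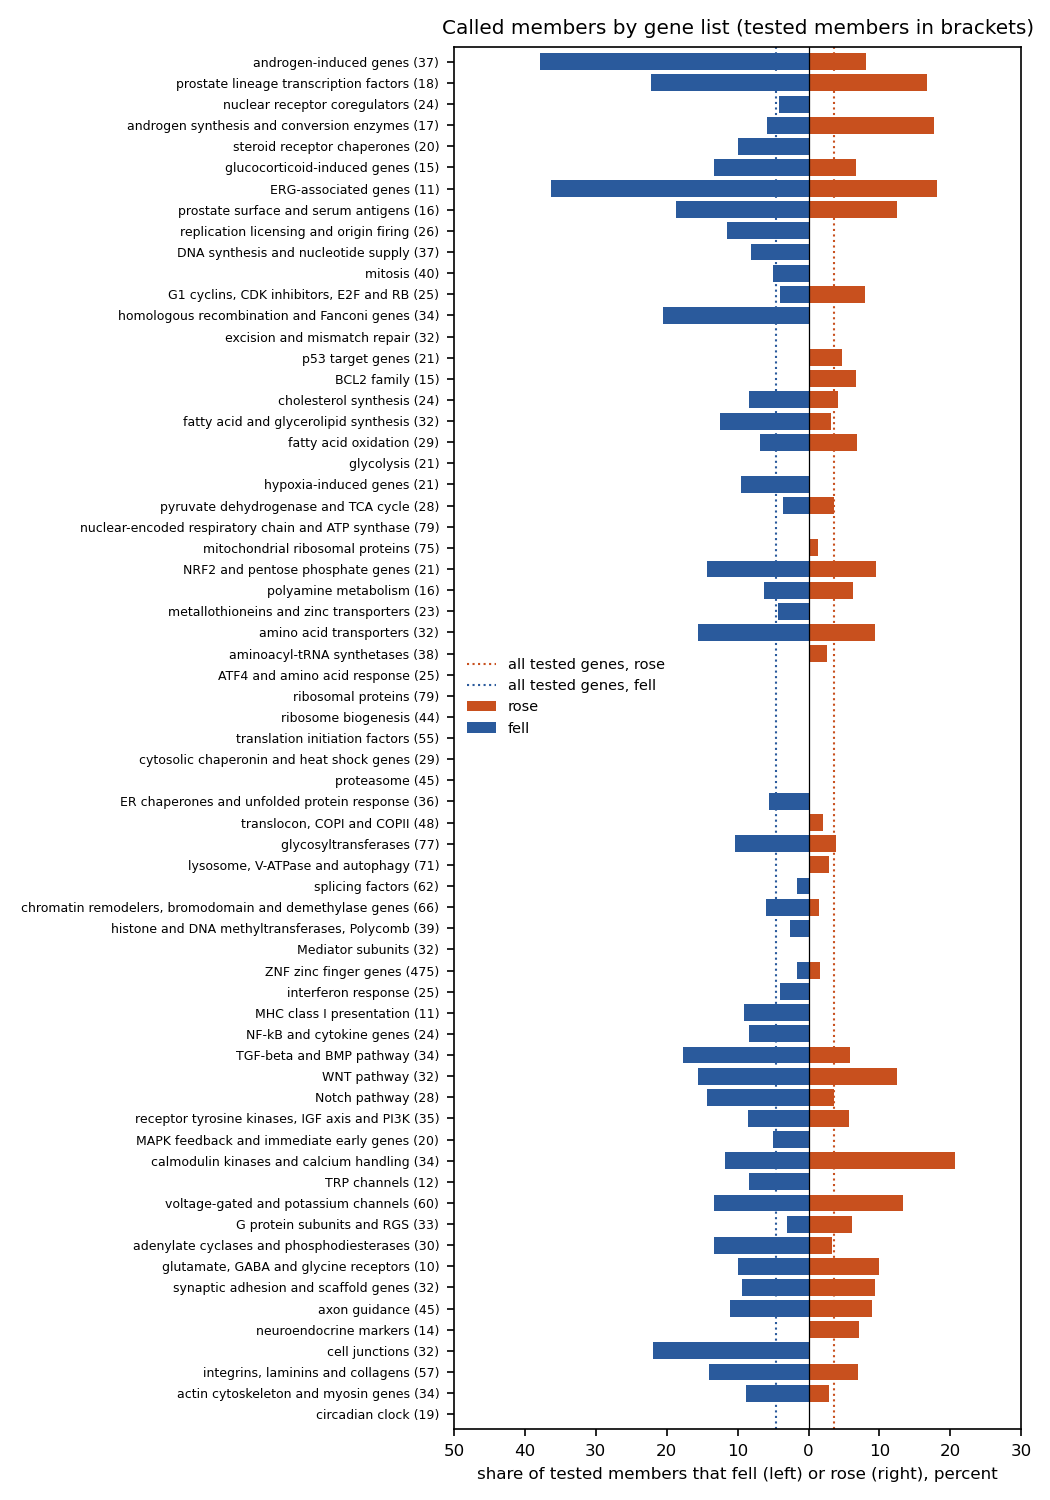
Share of tested members that fell (left) or rose (right) under enzalutamide, in percent, for lists with at least 10 tested members (number in brackets; 1 such list is not shown); dotted lines are the shares over all tested genes (4.65% fell, 3.65% rose). Cell junctions extend left only, androgen-induced genes further left than right, and calcium handling further right than left. Ribosomal proteins, respiratory chain, proteasome and initiation factors have no bar.

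Proliferation genes lay slightly below 0 as a body. Over the lists of replication licensing, DNA synthesis, mitosis and homologous recombination, 15 of 137 genes fell and 0 rose, 124 lay below 0, and the median was -0.22. Of all tested genes 4.65% fell, near the 5% of mitotic genes, 3.65% rose and 47.9% lay above 0. By list, 3 of 26 licensing genes, 3 of 37 DNA synthesis genes, 2 of 40 mitotic genes and 7 of 34 recombination and Fanconi genes fell. With single libraries left out these counts ran from 2 to 7, 1 to 4, 1 to 3 and 4 to 11. The 15 became 25 without vehicle 11 and 9, 9 and 8 without enzalutamide 3, 5 and 7. Under library totals 10 fell and 1 rose, with GC content and length trends removed 32 fell and 2 rose, and in a test against a 1.2-fold minimum 0 fell. FANCI, a clamp protein of crosslink repair, spanned 82.4 to 150 CPM (median 125) in vehicle and 70.7 to 116 (median 85.9) in enzalutamide tumors (-0.40 ± 0.09, adjusted p = 0.00424). The helicase gene BLM (medians 34.3 and 24.2 CPM, -0.46 ± 0.11), FANCD2 (83.6 and 66.9, -0.33 ± 0.08) and the checkpoint kinase gene CHEK1 (58.0 and 48.5, -0.35 ± 0.10) fell with it. Among licensing genes MCM6 went from 102 to 79.3 CPM, MCM3 from 107 to 87.0 and MCM4 from 297 to 245 (lost in 17 of the 28 fits), and the primase gene PRIM1 from 42.5 to 33.8. UHRF1 (-0.43, lost without enzalutamide 7 or vehicle 15, at -0.39 and -0.38) and DNMT1 (-0.25, lost in 18), which maintain DNA methylation, fell too, as did ECT2 of cytokinesis (-0.44) and the spindle checkpoint gene MAD2L1 (-0.37, lost in 20). MKI67 had medians of 193 and 129 CPM and did not pass (-0.34 ± 0.14, adjusted p = 0.134).

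G1 regulators changed in mixed ways, 2 up and 1 down of 25: CDK2 fell from 68.0 to 41.9 CPM (-0.53 ± 0.12, adjusted p = 0.00274) while its partner CCNE1 rose from 3.22 to 4.44 (0.46 ± 0.13, adjusted p = 0.02) and the inhibitor CDKN2A from 3.25 to 6.65 (0.90 ± 0.21, adjusted p = 0.00442). Excision and mismatch repair gave 0 of 32. Of 21 p53 target genes 1 rose, BTG2 (84.3 to 116 CPM, 0.48 ± 0.10), and of 15 BCL2 family genes 1 rose, BID (0.26, lost in 13 of the 28 fits). MYC spanned 116 to 612 CPM in vehicle and 119 to 828 under enzalutamide (0.47 ± 0.26, adjusted p = 0.289).

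Genes of the housekeeping machinery were rarely called, beside 8.30% of all tested genes. Over cytosolic and mitochondrial ribosomal proteins, nuclear-encoded respiratory chain, proteasome, translation initiation factors, ribosome biogenesis and Mediator subunits, 1 of 409 genes rose and 0 fell, and the median was -0.01; 1 to 6 were called when single libraries were left out. The 1 was MRPS31 of the mitochondrial ribosome (15.7 to 20.2 CPM, 0.28 ± 0.08). The counts were 0 of 79 ribosomal proteins, 1 of 75 mitochondrial ribosomal proteins, 0 of 79 respiratory chain genes, 0 of 45 proteasome genes, 0 of 55 initiation factors, 0 of 44 biogenesis genes and 0 of 32 Mediator subunits. Nor did any of 29 cytosolic chaperonin and heat shock genes, 25 genes of the ATF4 response or 21 glycolysis genes pass. Of 38 aminoacyl-tRNA synthetase genes WARS rose (0.16; 0.15 and not called without enzalutamide 5 or vehicle 1), of 48 translocon and coat genes SRPRB (0.29 ± 0.08), and of 71 lysosome and autophagy genes the protease gene CTSH (47.7 to 66.7 CPM) and ATP6V0A1 (0.18, lost in 17 fits). Of 36 ER chaperone and unfolded protein response genes CREB3L4 (-0.26; -0.23 and -0.24 and not called without enzalutamide 2 or 3) and DNAJC10 (-0.32, lost in 12 fits) fell. Copies of ribosomal protein genes can share reads.

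Genes of the metabolism lists were called in 8.35% of 395, near the 8.30% of all tested genes. Of 24 cholesterol synthesis genes 22 lay below 0, but 2 fell, SC5DL among them (132 to 107 CPM, -0.32 ± 0.09), and TM7SF2 rose. Of 32 fatty acid and glycerolipid genes 4 fell: the elongases ELOVL2 (19.8 to 10.1 CPM, -1.04 ± 0.22) and ELOVL7 (29 to 20.7, -0.55 ± 0.11), ACSL3 and the citrate lyase ACLY (290 to 234, -0.32 ± 0.09); AGPAT1 rose by 0.28. Without vehicle 11, 8 members were called. In fatty acid oxidation 2 of 29 rose (CROT and HSD17B4) and 2 fell (ETFDH, and CPT1A at -0.45, lost in 18 fits). In pyruvate and citrate metabolism PDK2, which restrains pyruvate dehydrogenase, rose from 40.6 to 50.5 CPM and DLAT, a subunit of that enzyme, fell from 94.2 to 81.7, of 28 genes. Of 21 hypoxia-induced genes 2 fell, the glucose transporter SLC2A3 (5.51 to 1.64 CPM) and LOX, a collagen crosslinker (36.6 to 11.6, -1.56 ± 0.26).

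Of 21 genes of the NRF2 and pentose phosphate list 3 fell, among them TXNRD1 (227 to 192 CPM, -0.24 ± 0.06) and ABCC1 (72.2 to 59.3), and 2 rose, UGDH and ABCC3 (5.51 to 13.3). Polyamine genes gave 1 of 16 each way, arginase 2, ARG2, up from 21.0 to 39.8 CPM (0.81 ± 0.15) and ornithine decarboxylase, ODC1, down by 0.47 (lost in 15 fits). Of 23 metallothionein and zinc transporter genes SLC39A6 fell from 447 to 343 CPM. Amino acid transporters changed in 8 of 32: SLC43A1, SLC36A1 (37.4 to 23.6 CPM) and the glutamine carrier SLC1A5 (303 to 244) were among 5 that fell, and SLC7A14, SLC3A1 (5.41 to 12.3) and SLC38A10 (lost in 7 fits) rose.

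Of 77 glycosylation genes 8 fell and 3 rose. The mucin-type enzymes ST6GALNAC1 (40.8 to 4.09 CPM) and GALNT7 (283 to 158, -0.90 ± 0.12) fell with UAP1 and B3GNT5 (12.5 to 8.06), and GALNT9, CHST10 and B3GAT1 rose by 1.07, 0.27 and 0.33. Of 3 tested UGT2B glucuronosyltransferase genes, UGT2B4 (5.47 to 2.07 CPM) and UGT2B10 (2.85 to 1.40) fell. The near-identical sequences of this family make the split of reads uncertain.

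Called shares of the 13 signalling lists ran from 4% (1 of 25 interferon response genes) to 32.4% (11 of 34 calcium handling genes). The share over all tested genes was 8.30%. WNT genes gave 4 up and 5 down of 32. The receptors FZD5 (46.2 to 24.3 CPM, -0.95 ± 0.12) and FZD8 (57.8 to 30.5, -0.94 ± 0.14) fell while FZD10 (0.62 to 2.15, 1.62 ± 0.29) and FZD2 (0.42, lost in 17 fits) rose with WLS and PORCN, which both act in WNT secretion. TGF-beta and BMP genes gave 2 up and 6 down of 34: the co-receptor TGFBR3 (-1.01 ± 0.20), the receptor BMPR1B (197 to 125 CPM, -0.64 ± 0.11), PMEPA1 and the target ID2 (-0.42) fell, and the ligand BMP2 (1.60 to 3.72 CPM) and BAMBI, a decoy receptor, rose. Notch genes gave 1 up (DTX3, 0.29) and 4 down of 28, with NOTCH1 at 26.7 to 14.9 CPM (-0.79 ± 0.16), its coactivator MAML2 at -1.26 ± 0.24 and HES2 at -1.0 ± 0.22. Of 35 growth factor receptor, IGF and PI3K genes 3 fell, including FGFR3 (9.71 to 4.12 CPM) and FGFR1 (126 to 92.6), and 2 rose, IGFBP3 and ERBB2 (21.5 to 30.2 CPM, 0.42 ± 0.08, adjusted p = 0.000737).

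Calcium handling genes were called in 11 of 34, 7 up and 4 down. The plasma membrane calcium pumps split: ATP2B2 went from a median of 0.40 to 4.55 CPM (2.09 ± 0.34, adjusted p = 9.63e-05), with 0 counts in at least 1 vehicle tumor, while ATP2B4 fell from 26.9 to 18.1 (-0.68 ± 0.11) and ATP2B1 from 69.8 to 49.6 (-0.44 ± 0.12). The other rises were CAMK2N1 and CAMK2D, the store-operated channel genes ORAI2 and ORAI3, and the calcineurin regulators RCAN1 and RCAN2. The reticulum pump ATP2A3 fell from 122 to 74.9 CPM and the kinase CAMK1D from 13.4 to 6.73. Voltage-gated and potassium channels were called in 16 of 60, 8 in each direction. Beside KCNJ3, KCNG1 rose (2.60 to 4.75 CPM), as did CACNA1G, KCNH2, KCNK15, KCNMB2, KCNT1 and SCN4B. CACNG4 (6.88 to 1.17), KCNH8, KCND3 (3.33 to 1.38), KCNN2 (41.4 to 28.6), KCNG3 and KCNK1 fell, as did SCN2A (lost in 6 fits) and KCNC2 (lost in 18). Of 12 TRP channels 1 fell, TRPM8, from 472 (100 to 799) to 77.8 CPM (19.5 to 172).

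In cyclic nucleotide signalling 1 of 30 rose and 4 fell: ADCY2 rose, whereas the phosphodiesterase PDE6A (8.83 to 4.91 CPM, -1.0 ± 0.15), the protein kinase A subunit PRKACB (143 to 76.9, -0.91 ± 0.14) and ADCY1 (44.3 to 35.1) fell. G protein and RGS genes gave 2 up (GNG2 and RGS17, 0.82) and 1 down (RGS22, -1.06) of 33. Immune-related lists were called at shares of 4% (interferon response), 8.33% (NF-kB and cytokines) and 9.09% (MHC class I), beside 8.30% of all tested genes. Of 25 interferon response genes IFIH1 fell (8.70 to 6.58 CPM), and of 11 MHC class I genes the peptidase ERAP2 (10.8 to 7.07, -0.71 ± 0.12). Of 24 NF-kB and cytokine genes NFKB1 and NFKB2 (-0.52, lost in 16 fits) fell, and of 20 MAPK feedback genes SPRED1 (-0.61 ± 0.18).

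Neural gene lists were called at 18.0% with no shared direction. GRIA2, an AMPA receptor subunit, spanned 3.01 to 21.7 CPM (median 4.52) in vehicle and 5.55 to 94.3 (median 29.5) under enzalutamide, and GABBR2, a GABA-B receptor, went from 4.31 to 2.45 CPM, so that 1 of 10 transmitter receptor genes moved each way. Of 32 synaptic genes 3 rose, among them LRRC4 (1.90 to 3.99 CPM) and SYN1 (15.9 to 22.4), and 3 fell, NRCAM (25.8 to 7.01, -1.53 ± 0.31), CNTNAP2 (-0.68) and HOMER2. Axon guidance gave 4 up (EFNB3, UNC5A, EFNA1 and SEMA6B) and 5 down of 45, with PLXNA2, a semaphorin receptor, at 32.0 to 13.9 CPM (-1.15 ± 0.13, adjusted p = 3.65e-07), ROBO3 at -0.72 and UNC5A at 32.1 to 49.8 CPM (0.63 ± 0.11). Of 14 neuroendocrine markers 11 lay above 0 and 1 rose, the granin SCG2, which spanned 2.25 to 25.6 CPM (median 5.19) and 7.76 to 55 (median 16.6); its call (1.22 ± 0.35, adjusted p = 0.0256) was lost without enzalutamide 5 (adjusted p = 0.0684).

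In the list of cell junction genes 7 of 32 fell and 0 rose, in the full comparison and in each of the 28 fits without 1 library. Over all tested genes 4.65% fell and 3.65% rose. The count that fell was 5 with a replicate block, 5 against a 1.2-fold minimum and 6 of 31 with thinned counts. It was 8 under limma voom with quality weights. PKP1, the tight junction genes CLDN8 (44.4 to 21.9 CPM, -0.95 ± 0.16) and CLDN1 (26.0 to 14.2, -0.86 ± 0.17) and the desmosomal cadherin DSC2 (105 to 62.6, -0.68 ± 0.12) had the smallest p. Of 6 tested keratins KRT14 fell (5.79 to 0.80 CPM). Integrin, laminin and collagen genes gave 4 up and 8 down of 57: LAMA4 (5.13 to 1.27 CPM, -2.08 ± 0.27), COL4A5 (17.8 to 5.69, -1.53 ± 0.22) and ITGA2 (9.80 to 4.88) fell, and FRAS1 (0.79 to 2.07), ITGB4 (3.02 to 4.77), COL18A1 and COL6A1 rose. Actin and myosin genes gave 3 down, MYLK (-0.84), MYH9 (384 to 294 CPM, -0.35 ± 0.08) and RDX (-0.39), and 1 up of 34, PFN2 (0.22; adjusted p = 0.0509 without enzalutamide 7). No circadian gene passed, of 19.

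RNA and chromatin genes were called at 3.41%, beside 8.30% of all tested genes. Of 62 splicing factors HNRNPA2B1 fell (1077 to 976 CPM, -0.20, lost in 11 fits). Of 66 chromatin remodeler, bromodomain and demethylase genes 4 fell, among them BAZ1A (64.3 to 44.6 CPM, -0.47 ± 0.12), ARID5B (-0.55) and CHD7 (-0.42, lost in 10 fits), and SMARCD3 rose (14.2 to 20.5, 0.45 ± 0.10); 8 were called without vehicle 8, and 3 in the fits without enzalutamide 1, 5, 7 or 11 or vehicle 1, 4, 5 or 9. DNMT1 was the 1 of 39 methyltransferase and Polycomb genes that fell. Of 475 ZNF zinc finger genes 8 rose and 8 fell (29 called without vehicle 11 and 28 without vehicle 8). ZNF350, ZNF761, ZNF577 and ZNF615 (152 to 96.9, 447 to 338, 232 to 178 and 194 to 128 CPM) fell, and ZNF503 rose (66.3 to 117). Members of such families can share reads.

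By symbol alone, the families with the highest share of falls among stems with at least 10 tested genes were MCM (4 of 11), CYP (5 of 21), and ACTR, GALNT, PPM and SAMD (2 of 10 each). Among those with the highest share of rises were PLA (3 of 11), CYP (4 of 21), symbols with the stem H (2 of 13) and TSPAN (2 of 14). Protein-coding genes were called in 8.50% of 12194 and long noncoding RNAs in 4.55% of 220. In the 25% of genes with the lowest vehicle level 10.9% were called, with 213 up and 146 down. In the highest 25% the share was 7.64%, with 67 up and 185 down. Both sets were chosen by the vehicle level, which also enters the fold change. Genes low in vehicle therefore lean towards a rise and genes high in vehicle towards a fall. The split of directions follows in part from this choice, and its link to expression level was not tested. Median GC content was 52.3% for genes that rose and 45.9% for genes that fell, against 48.5% over all tested genes with a value, and median transcript lengths of 3366 and 4814 bases against 3703. The slope of a library's log2 level on GC content, per 10 percentage points, ran from -0.19 to 0.29 in vehicle and from -0.09 to 0.30 in enzalutamide tumors, and vehicle 8 had the highest of its arm. After removal of GC content and length trends within each library, 644 genes rose and 834 fell, and 940 of the 1095 calls were kept in the same direction. That fit held only genes with a GC value, which were 430 of the 481 that rose and 573 of the 614 that fell. Calls without a value could therefore not be kept. The part of GC content in the other calls was not tested.

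Most markers of other cell types had too few counts to be tested, and some list sums below rested largely on 1 gene. ITGA6 had medians of 83.5 and 71.6 CPM in vehicle and enzalutamide tumors, beside 116 and 96.8 for the summed basal epithelial list. ENG had medians of 45.0 and 41.4 CPM, beside 68.2 and 69.5 for the summed endothelial list. Of 14 basal epithelial markers 6 were tested, KRT14 and CD44 (8.01 to 4.35 CPM) fell and ITGB4 rose; TP63 and KRT5 had a median of 0 in both arms, and the summed list ran from 86.3 to 157 CPM in vehicle and from 77.9 to 115 in enzalutamide tumors. Of 13 fibroblast markers 4 were tested and FBN1 fell (5.03 to 2.42 CPM, -1.09 ± 0.24). The summed list ran from 9.47 to 37.9 CPM (median 23.7) in vehicle and from 7.35 to 25.7 (median 13.2) in enzalutamide tumors, and DCN and POSTN had a median of 0 in both arms. Its part in the falls of LAMA4, COL4A5 and LOX was not tested. Endothelial markers had 2 of 14 tested, with EGFL7 up (0.43, lost in 17 fits) and summed levels of 59.7 to 97.3 and 58.0 to 90.1 CPM, while CDH5, KDR and EMCN had medians of 0. VWF, not tested, ran from 0.572 to 5.57 CPM (median 3.08) in vehicle and from 0 to 1.26 (median 0.35) in enzalutamide tumors, and its part in the falls of LAMA4 and COL4A5 was not tested. Of 12 leukocyte markers 1 was tested and 0 called, of 7 erythrocyte markers 0 were tested, and of 13 muscle and adipocyte markers 4 were tested and 0 called. Of 12 hepatocyte markers 3 were tested; ALB rose, also without enzalutamide 2, SERPINA1 fell (5.37 to 2.73 CPM), and FGA was at 0 in all tumors. The tumors were sequenced whole, so fewer cells of a type and less RNA per cell cannot be told apart, and reads of the mouse host that resemble human genes may stand in these counts.

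ARN-509, given at the same dose, shared the vehicle tumors as control, so only levels are set side by side. Enzalutamide levels were scaled over 28 libraries and ARN-509 levels over 43, so the levels set side by side were not scaled together. NOV had medians of 12 CPM under enzalutamide and 15.7 under ARN-509, C4orf19 9.59 and 8.58, and NFE2L2 22.8 and 24.2. Where the medians lay further apart, GUCY1A2 stood at 1.22 CPM (0.61 to 3.54) under enzalutamide and 3.08 (1.37 to 5.93) under ARN-509, and LUZP2 at 0.78 (0.16 to 1.43) and 1.65 (0.91 to 2.59), so the drugs' ranges overlapped. The difference between the drugs was not tested here.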

How the data were processed

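The authors deposited 1 table of raw read counts per gene symbol, 23368 genes in all, for 44 tumor libraries. Libraries were made with a kit that does not mark strand, per the labels' protocols. The submitters' processing notes name hg19 as the build, and HTSeq 0.6.1, Picard 1.77, TopHat2 2.1.0 and bcl2fastq 1.8.4 as tools. Tool parameters, annotation and treatment of mouse reads: not given in the sources used here.

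Columns were matched to tumors by the label in the sample record (0 unmatched), and arms came from the titles. Counts of 28 libraries were filtered with filterByExpr by arm, scaled with TMM factors and tested by the robust quasi-likelihood F test of edgeR 4.0.16 under R 4.3.3, with arm as the only term. The SE is the log2 value divided by the root of F. No pair of libraries of an arm agreed within counting noise (chi-square per degree of freedom at least 3.27 and 4.41), so each counts once. The shallowest library held 4187464 counts. The test was tested on simulated data.

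The tumors compared, the 76 gene lists and the tests were chosen with earlier results of these data known. Named are the 20 largest rises and falls with a mean log2 CPM of 1 or more, then the 10 smallest p per direction among changes of 1.5- to 2-fold and under 1.5-fold, up to 4 called members of each list with the smallest p and those moving against it, 13 genes of androgen signalling and growth, symbol families with at least 10 tested genes, and 6 promoters; the genes whose arms do not overlap, the KCNJ3 promoter and the genes set beside ARN-509 were chosen after their values were seen. Promoters and biotypes came from RefSeq (GRCh38.p14), matched by symbol. GC content and transcript length came from a GRCh38 annotation, with a value for 89.1% of the tested genes, and its coordinates were not used. Alternatives were other scalings, filters, DESeq2 1.42.0, limma 3.58.1 voom with and without quality weights, a 1.2-fold minimum, other sets of libraries, thinned counts, a replicate block, and removal of GC and length trends. Only genes with a GC value were fitted as an alternative added after the data were seen. Some named genes and 1 gene list are not reported here.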

Additional observations from a re-analysis of the deposited data

How the results depend on the processing

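Against 1095 calls (481 up, 614 down; 646 under 1.5-fold, 282 from 1.5- to 2-fold, 167 of at least 2-fold), limma voom with quality weights gave 2377 (1176 up, 1201 down; 1816 under 1.5-fold). A test against a 1.2-fold minimum gave 317 (120 up, 197 down; 12 under 1.5-fold and 150 from 1.5- to 2-fold), and counts thinned to the shallowest library gave 657 (272 up, 385 down; 353 under 1.5-fold and 186 from 1.5- to 2-fold). Genes under 1.5-fold numbered 1066 with GC and length trends removed, and genes of at least 2-fold 287 without a filter on low counts. Leaving out single libraries gave 885 (vehicle 1) to 1446 (vehicle 8) calls, with 391 to 666 up, 494 to 780 down, 485 to 986 under 1.5-fold, 249 to 333 from 1.5- to 2-fold and 141 to 180 of at least 2-fold. The cause was not tested, except that thinning and the 1.2-fold minimum by construction leave fewer calls. The replicate numbers came from the sample titles, and whether they pair the tumors cannot be told from these values. Over 13 pairs of the same number, r of their deviations ran from -0.46 to 0.73. Of these, 3 were over 0.1, and 2 libraries were most like their own number. With the replicate block, 595 genes passed (269 up, 326 down; 255 under 1.5-fold), and 1 of the 137 replication, mitosis and recombination genes fell, against 15 without the block. Of the values of named genes under the alternatives, 10750 kept direction and side of the threshold, 792 kept direction without passing, 4 newly passed and 4 reversed: HNRNPA2B1 with enzalutamide 4 kept in (1.37) and FOLH1 with DESeq2 (0.72), voom with quality weights (0.74) and without vehicle 12 (0.76). The count of all calls moved by less than 1.5 times under the other settings, 891 with enzalutamide 4 kept in, 1386 without vehicle 8 and 10, and 1455 in a fit of 43 libraries. Depth limits the lowest genes most: 2790 genes had 0 counts in all libraries.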
